A study of Mus musculus with 2 samples.

Results

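Interferon-stimulated genes are the genes that a cell switches on when interferon reaches it. The set described here holds 44 such genes, chosen by name from textbook knowledge of the response, with earlier results of these data known. All 44 were found by symbol among the 25827 genes of the deposited matrices. They were followed gene by gene across the cell classes of 2 single-cell libraries from the whole brain of adult mice. One library came from IL34LacZ/+ mice, which carry 1 lacZ allele of Il34, the gene of the cytokine interleukin-34, and the other from IL34LacZ/LacZ mice, which carry that allele on both chromosomes. They are called the heterozygous and the homozygous library below. Both groups carry lacZ, no wild-type library was analysed here, and the labels give neither the number of animals behind each library nor their sex. The cells had been sorted as mural cells and fibroblasts (CD13+ and/or CD140a+ without O4), CD31+ endothelial cells, ACSA-2+ astrocytes, border-associated macrophages (BAMs, CD11b high F4/80+) and microglia (CD11b+ F4/80 high), and loaded on the 10x Genomics Chromium 3′ v3.1 platform.

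Interferons are secreted signals of antiviral defence. Type I interferons bind the Ifnar1/Ifnar2 receptor, whose kinases activate a complex that includes Stat2 and Irf9 and binds the interferon-stimulated response element in the promoters of its target genes, while the signal of interferon gamma reaches its targets through the gamma-activated site. In the brain, microglia, border macrophages and vascular cells are all known to respond.

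Promoter sequences were matched by symbol to RefSeq (GRCm38.p6), with 36 of the 44 genes matched through 43 promoters, each 250 bases before to 50 bases after a transcript start. The response element was searched as GAAANNGAAA and the gamma-activated site as TTCNNNGAA, each on both strands. The response element was found in 20 of the 36 genes (55.6%) and in 21 of the 43 promoters (48.8%), against 1131 of all 32851 promoters of the same length (3.44%). The gamma-activated site was found in 8 of the 43 promoters (18.6%) against 2726 of all promoters (8.30%), and the motifs overlapped in 2 promoters of the set. By role, the response element was found in 4 of 4 matched sensor genes, 4 of 5 GTPase genes and 3 of 4 IFIT genes, and in 0 of 4 genes of the remaining interferon-induced proteins. A match describes letters in this window and is not shown to be a binding site.

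Shown next are the 200 bases before the start of the 6 genes that hold the element and were at least 1.5-fold lower in BAM-like cells of the homozygous library, the class where the most genes of the set differed with many cells behind them. Each is written 5′ to 3′ on the gene's own strand, with the element in capitals (TTTC first where it lies on the other strand). Ifi208 (chr1:173673465-173673664, plus strand) holds 1 match, 48 bases before the start, and Rsad2 (chr12:26456453-26456652, minus strand) holds 1, 110 bases before. Ifit1 (chr19:34640689-34640888, plus strand) holds 2, at 75 and 94 bases. Isg15 (chr4:156200819-156201018, minus strand) holds 3 that overlap, between 56 and 68 bases. Ifit3 (chr19:34583329-34583528, plus strand) holds 2, at 112 and 146 bases, and its neighbour Ifit3b (chr19:34607757-34607956, plus strand) holds 2, at 144 and 178 bases.
Ifi208: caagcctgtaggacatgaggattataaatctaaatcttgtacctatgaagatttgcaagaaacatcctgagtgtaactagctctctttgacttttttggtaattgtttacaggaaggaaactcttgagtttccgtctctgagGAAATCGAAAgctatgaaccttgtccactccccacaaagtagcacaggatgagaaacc
Rsad2: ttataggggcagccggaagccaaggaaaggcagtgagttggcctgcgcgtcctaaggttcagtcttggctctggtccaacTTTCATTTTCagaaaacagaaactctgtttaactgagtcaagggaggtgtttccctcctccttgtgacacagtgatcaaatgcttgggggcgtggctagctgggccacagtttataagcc
Ifit1: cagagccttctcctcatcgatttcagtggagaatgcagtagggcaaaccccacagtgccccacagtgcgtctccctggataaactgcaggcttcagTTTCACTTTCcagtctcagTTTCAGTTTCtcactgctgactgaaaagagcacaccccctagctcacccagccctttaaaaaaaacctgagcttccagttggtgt
Isg15: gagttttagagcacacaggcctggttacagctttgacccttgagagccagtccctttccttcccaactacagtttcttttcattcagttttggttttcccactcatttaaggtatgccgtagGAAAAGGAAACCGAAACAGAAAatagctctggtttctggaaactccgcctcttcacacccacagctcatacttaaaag
Ifit3: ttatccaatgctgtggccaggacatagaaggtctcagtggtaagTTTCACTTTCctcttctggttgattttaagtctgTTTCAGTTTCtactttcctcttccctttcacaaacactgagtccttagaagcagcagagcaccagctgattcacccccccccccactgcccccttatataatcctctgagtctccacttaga
Ifit3b: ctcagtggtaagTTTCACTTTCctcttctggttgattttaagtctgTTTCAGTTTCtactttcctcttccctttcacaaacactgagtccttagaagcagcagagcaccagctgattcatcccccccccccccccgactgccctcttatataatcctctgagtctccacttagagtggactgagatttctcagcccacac
Ifit3 and Ifit3b share the stretch that holds both elements, letter for letter, and the 4 Ifit genes lie within 99.3 kb of chromosome 19. Of the 11 genes that were lower in BAM-like cells 10 had a promoter entry, and 6 of these held the element (60%), beside 14 of the 26 matched genes that were not (53.8%), shares that lie close together.

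Values are raw counts of unique molecular identifiers (UMIs) summed over the cells of a class and library and divided by all UMIs of that class and library, on the usual scale of CPM. They are 3′ tags, not scaled by gene length. Ratios are homozygous over heterozygous and are followed, in parentheses, by their interval. Each genotype is represented by a single library, so nothing here tests genotype: the 95% intervals (exact conditional binomial) cover counting error only, and a difference between these libraries cannot be told apart from a difference between the animals or sorts behind them. Genes are ranked by level in the heterozygous library. A gene is called lower or higher in a class when it has at least 50 UMIs over both libraries there, a ratio of at least 1.5-fold and an interval without 1. After filtering, 8220 of 17168 barcodes of the heterozygous and 9632 of 18858 of the homozygous library were kept, with median depths of 3541 and 3679 UMIs per cell, and 26 barcode sequences occurred among the kept cells of both. Cell names ending in -like were rebuilt from marker genes. The ACSA-2+ gate left a single astrocyte-like cluster of 28 cells, which was not ranked, while choroid plexus epithelial-like and neuron-like cells, which no gate named, were present. RNA of choroid plexus genes was found in BAM-like, endothelial-like, microglia-like, fibroblast-like, mural-like and neuron-like cells and was lower in the homozygous library in each of these 6, with ratios from 0.181 in mural-like to 0.583 in endothelial-like cells; its part in the results was not tested. Il34 itself, at 112 CPM in the heterozygous and 104 CPM in the homozygous library in mural-like cells, does not check the genotype, since the labels do not say which stretch of the gene lacZ replaces.

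BAM-like and endothelial-like cells held the most RNA of the set among classes with at least 50 cells in each library. In BAM-like cells (2071 and 2078 cells) the 44 genes summed to 6128 CPM in the heterozygous and 5023 CPM in the homozygous library, and in endothelial-like cells (1827 and 1722) to 5574 and 5411 CPM. Neutrophil-like cells (78 and 139) followed with 4549.7 and 3218 CPM. The sum was 2281 and 2193 CPM in mural-like, 2154 and 2605 CPM in fibroblast-like and 1565 and 1237 CPM in microglia-like cells. It was lowest in neuron-like cells (569 and 678 CPM), choroid plexus epithelial-like cells (501 and 464 CPM) and oligodendrocyte-like cells (318 and 209 CPM). BAM-like cells were thus first in the heterozygous and endothelial-like cells in the homozygous library.

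**Figure D1:**
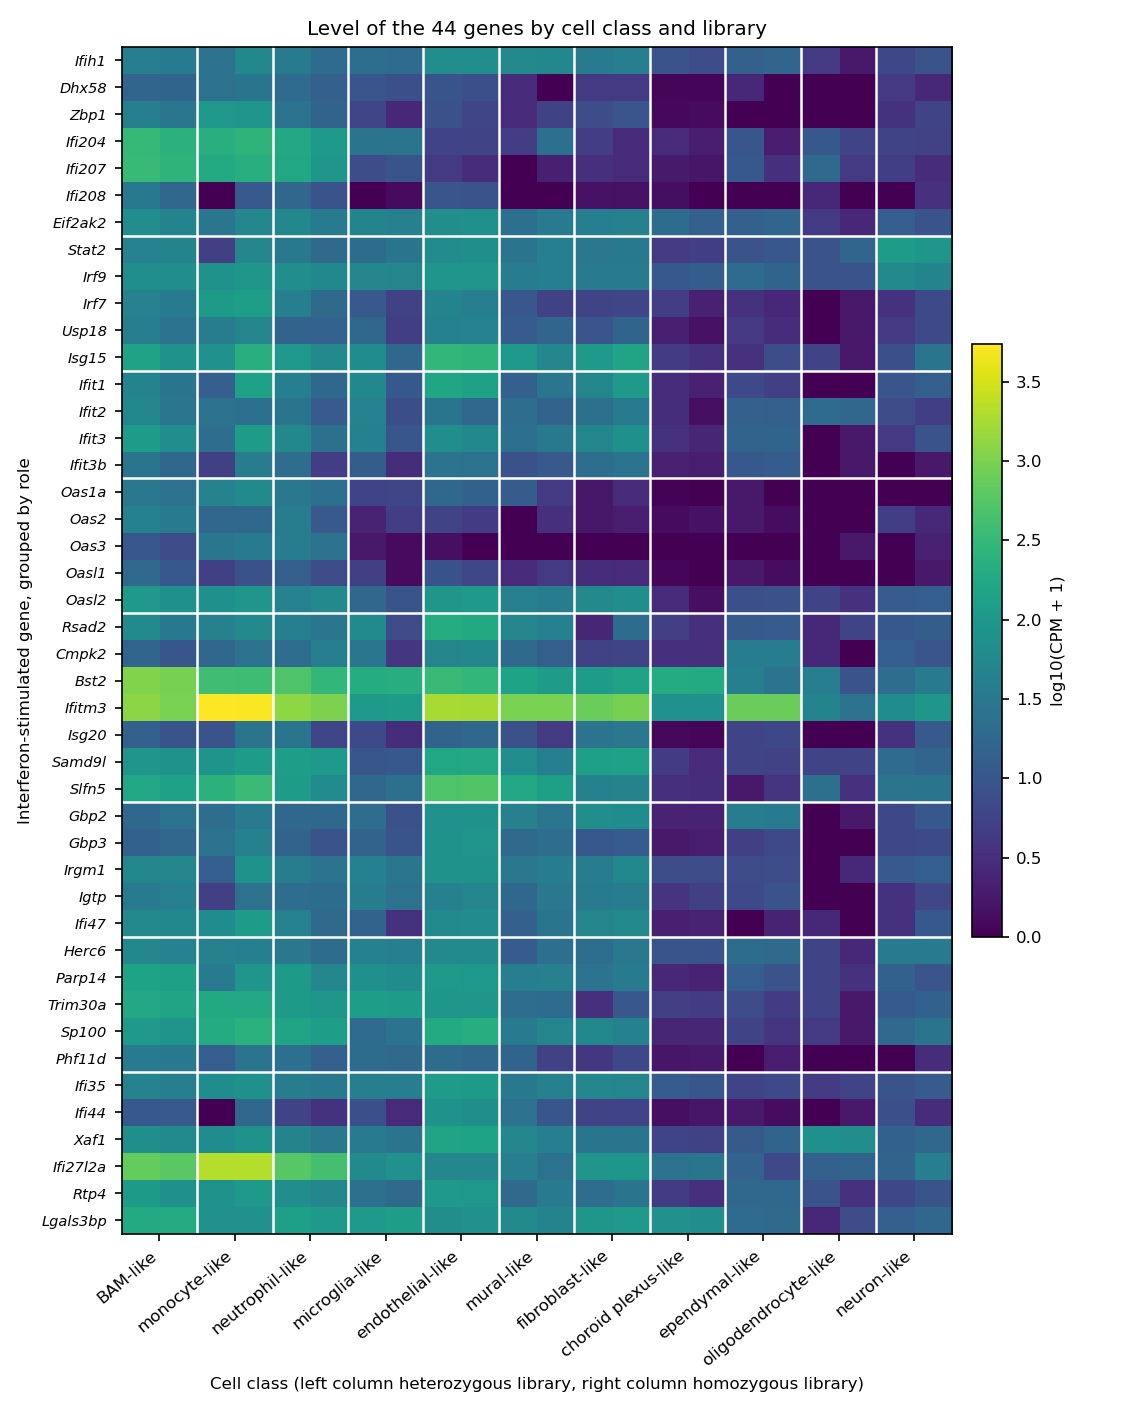
Level of each of the 44 genes (rows, grouped by role) in each cell class (pairs of columns, heterozygous left and homozygous right), as the colour of log10(CPM + 1). Ifitm3 and Bst2 are bright in most classes, and the choroid plexus and oligodendrocyte-like columns are dark for most genes.

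Genes of the set differed in where they were most abundant, by the mean of both libraries over the classes with at least 50 cells in each. Endothelial-like cells led for 25 genes, 12 of them with intervals clear of the next class in both libraries, and BAM-like cells for 15, 7 of them clear. Among the endothelial-led genes, Ifitm3, whose membrane protein blocks the entry of viruses, stood at 1799 CPM in the heterozygous and 1717 CPM in the homozygous library, and Slfn5 at 514 and 527 CPM. Rsad2, which encodes the antiviral enzyme viperin, stood at 204 and 188 CPM in endothelial-like cells against 48.7 and 43.0 CPM in mural-like cells, the next class. Isg15, a ubiquitin-like modifier, and Ifit1, which binds foreign RNA, were likewise highest there.

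Among the BAM-led genes were Bst2 (tetherin, which holds budding viruses at the cell surface), at 1088 CPM in the heterozygous and 943 CPM in the homozygous library, and the DNA-sensor family members Ifi204 and Ifi207. Ifi204 stood at 319 and 249.7 CPM in BAM-like cells but at 4.71 and 4.79 CPM in endothelial-like cells. The 2 classes thus expressed different parts of the set, with intervals for Ifi204 far apart. Oas3 was highest in neutrophil-like cells, with intervals clear of BAM-like cells. In neutrophil-like cells 11 of 30 measured genes of the set were called lower and 1 higher in the homozygous library against a background of 3.82% and 3.32%; erythroid markers there stood at 93.7 and 6447 CPM and endothelial markers had a ratio of 0.576, whose part was not tested. Stat2, a subunit of the factor that carries the type I signal, was highest in neuron-like cells at 115 CPM in the heterozygous and 94.4 CPM in the homozygous library, with intervals clear of endothelial-like cells (62.9 and 70.7 CPM). Ifi204, Ifi207 and Ifi208 are members of the same family, as are Ifit3 with Ifit3b and Oas1a with Oas1g. Their likeness in transcript sequence was not measured, so the split of reads within each is uncertain. Irf9, Irf7, Oas2, Igtp, Ifi47, Parp14 and Rtp4 overlap another annotated gene.

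Low-basal genes of the set, 22 textbook targets with little transcript at rest (among them Isg15, Rsad2, the 4 IFIT and 5 OAS genes and 3 of the 7 sensor genes), were unevenly spread over cells. These 22 were also chosen with earlier results of these data known. At least 1 of their UMIs was found in 1557 of 2071 BAM-like cells of the heterozygous library, while the richest 8.06% of the cells held as many of these UMIs as all the others. After each cell was thinned to 1000 UMIs, at least 3 of the 22 were found in 294 of 1827 endothelial-like cells of the heterozygous library (16.1%, exact interval 14.4 to 17.9%) and 268 of 1722 of the homozygous library (15.6%, 13.9 to 17.4%), so these intervals overlap. In BAM-like cells the counts were 214 of 2071 (10.3%, 9.05 to 11.7%) and 136 of 2078 (6.54%, 5.52 to 7.69%), lower in the homozygous library with intervals apart. Without thinning these shares were 39.8% and 34.6% in BAM-like and 39.0% and 37.0% in endothelial-like cells.

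Fibroblast-like cells had 16 such cells of 639 (2.5%) and 31 of 957 (3.24%), and microglia-like cells 10 of 761 (1.31%) and 8 of 1056 (0.758%). Choroid plexus epithelial-like cells, with a median depth of 13925 and 14209 UMIs before thinning, had 2 of 871 (0.230%) and 0 of 461. The low-basal genes summed there to 51.1 CPM in the heterozygous and 37.6 CPM in the homozygous library. At that level few thinned cells could reach 3 of the genes, so this class is no independent check of the limit. Neuron-like cells had 0 of 399, with an exact upper bound of 0.920%, and 2 of 806. The limit of 3 genes marks a range and not a cell type: 219 and 168 BAM-like cells held exactly 2 of the genes, and 86 and 66 held exactly 3. At least 5 genes were held by 85 (4.10%) and 41 (1.97%). Over 20 repeated thinning draws the BAM-like count lay between 215 and 253 in the heterozygous and between 106 and 138 in the homozygous library. The medians were 223 (10.8%) and 125 (6.02%). The heterozygous count of 214 given above thus lay below all 20 draws, and the homozygous count of 136 near their top.

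**Figure D2:**
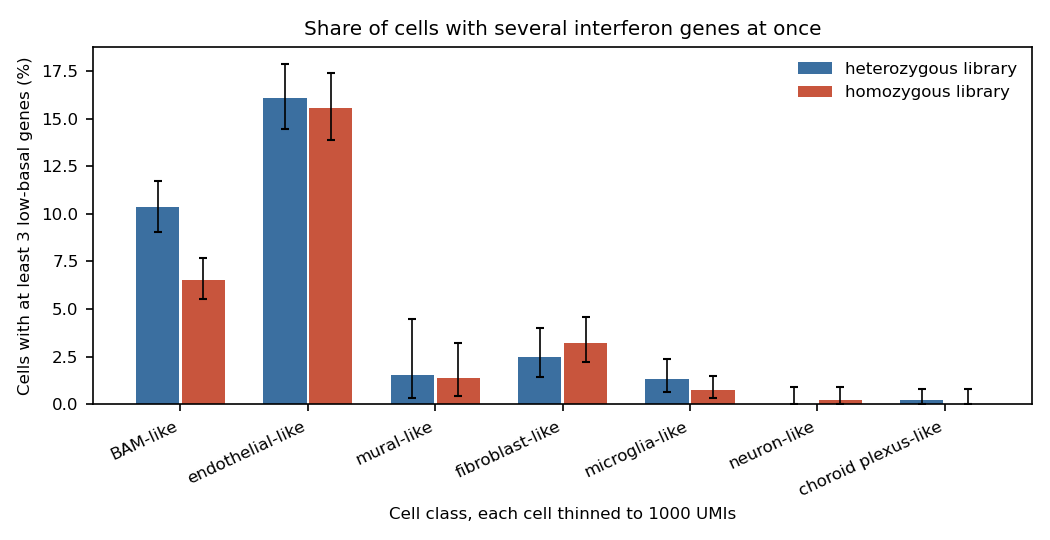
Percent of cells with at least 3 of the 22 low-basal genes (vertical axis) by cell class, each cell thinned to 1000 UMIs, for the heterozygous and homozygous library, with exact 95% intervals as bars. Endothelial-like and BAM-like cells stand above the other classes shown, and the libraries are apart in BAM-like cells.

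In BAM-like cells of both libraries each of the 44 genes was found in a larger share of the cells with at least 2 other low-basal genes than of the rest. Among thinned BAM-like cells of the heterozygous library, Ifit3 was found in 26.4% of the 401 cells with at least 2 other low-basal genes and in 3.23% of the remaining 1670, and in the homozygous library in 17.0% and 2.07%. Rsad2 was found in 12.2% against 1.39% in the heterozygous library. Bst2, widespread at rest, differed less, with 74.6% against 59.8%, and so did Lgals3bp, a secreted glycoprotein, with 23.8% against 15.1%. In endothelial-like cells of the heterozygous library Isg15 was found in 38.1% against 11.7%. There Ifi204, Oas1a and Oas3 were found in no larger a share, Oas1a in 1.95% against 1.98%. These 3 genes were found in only 6, 36 and 1 of the 1827 cells. In the homozygous library Oas1a was found in 2.56% against 0.741% and Ifi204 in 0.195% against 0.331%. These shares are a description of cells within a library and carry no test.

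In BAM-like cells most genes of the set were lower in the homozygous library. All 44 had at least 50 UMIs there; 37 had a ratio below 1, and the median ratio was 0.807, beside 1.02 over all 11246 genes measured, of which 43.3% lay below 1. By the 1.5-fold rule 11 genes were lower and 0 higher, against a background of 1.30% of all measured genes called lower and 2.73% called higher. The summed set had a ratio of 0.820 (95% interval 0.810 to 0.829) and the 22 low-basal genes, at 1111 and 768 CPM, a ratio of 0.691 (95% interval 0.672 to 0.711). With a Leiden resolution of 0.5, 5 genes were called in place of 11. At that resolution no cluster was named monocyte-like. A cluster named BAM-like there (392 and 575 cells) had monocyte as its next type. Another (171 and 229 cells), with BAM and microglia as its best types, stayed unnamed there. The part of these clusters was not tested.

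The 4 IFIT genes, which encode proteins that bind foreign or uncapped RNA, were all lower, and their sum had a ratio of 0.584 (0.547 to 0.623). Ifit1 stood at 47.6 CPM in the heterozygous and 27.4 CPM in the homozygous library, a ratio of 0.577 (95% interval 0.497 to 0.668). Ifit2 stood at 51.5 and 28.3 CPM (0.549, 0.475 to 0.634). Ifit3 stood at 112 and 66.5 CPM (0.591, 0.537 to 0.650), and Ifit3b at 27.5 and 17.3 CPM (0.630). For each of the 4 the heterozygous library was higher, by a similar factor. No single cell held more than 7.57% of the UMIs of an IFIT gene in either library.

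Of the remaining effectors, Rsad2 stood at 59.5 CPM in the heterozygous and 31.8 CPM in the homozygous library (0.535, 0.467 to 0.612). Its chromosomal neighbour Cmpk2, a mitochondrial nucleotide kinase, stood at 15.4 and 9.03 CPM (0.585, 0.449 to 0.759). The exonuclease gene Isg20 stood at 12.9 and 8.40 CPM (0.650, 0.491 to 0.858). All 3 were higher in the heterozygous library with intervals below 1. The abundant genes differed by less: Ifi27l2a stood at 729 and 605 CPM (0.830, 0.803 to 0.859), Ifitm3 at 1227 and 980.1 CPM (0.799, 0.778 to 0.820) and Bst2 had a ratio of 0.867 (0.844 to 0.891).

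Of the 5 signalling and feedback genes, Isg15 and Usp18 were called lower. Isg15 stood at 139.8 CPM in the heterozygous and 82.5 CPM in the homozygous library (0.590, 0.542 to 0.643). Usp18, the protease that removes Isg15 from proteins and dampens the receptor, stood at 39.3 and 25.7 CPM (0.655, 0.559 to 0.766). The subunits of the signalling complex did not pass the 1.5-fold rule: Stat2 had a ratio of 1.08 (0.947 to 1.23) and Irf9 of 0.956 (0.861 to 1.06), both with intervals that hold 1. Irf7, the factor that amplifies interferon production, stood at 44.5 and 34.9 CPM (0.784, 0.682 to 0.902).

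Among the sensors of foreign nucleic acid 1 of 7 passed the rule. Ifi208 stood at 31.3 CPM in the heterozygous and 16.4 CPM in the homozygous library (0.525, 0.434 to 0.633), the lowest ratio of the set in BAM-like cells. Its abundant relatives Ifi204 and Ifi207 had ratios of 0.782 and 0.828, and Zbp1 and Eif2ak2, which bind unusual nucleic acid and double-stranded RNA, of 0.699 and 0.715. In the OAS family, whose enzymes make the messenger that activates RNase L, the enzymatically inactive Oasl1 stood at 18.0 and 9.57 CPM (0.533, 0.414 to 0.683). Oas3 stood at 9.25 and 6.32 CPM, Oas2 at 43.5 and 35.3 CPM and Oasl2, the most abundant, at 101 and 73.4 CPM (0.729, 0.663 to 0.801), all 5 of the family being below 1. The genes nearest the limit on either side were Usp18 and Isg20, inside at 0.655 and 0.650, and Oas3 and Rtp4, outside at 0.684 and 0.691.

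The interferon-inducible GTPases, which guard against intracellular microbes and respond strongly to interferon gamma, did not share this direction. Gbp2 stood at 16.5 CPM in the heterozygous and 23.8 CPM in the homozygous library (1.45, 1.18 to 1.77), higher in the homozygous library but inside the 1.5-fold limit. Igtp and Gbp3 had ratios of 1.21 and 1.2, Irgm1 of 1.0 and Ifi47 of 0.981. The 5 summed to 171 and 188 CPM, a ratio of 1.09 (1.03 to 1.17), the one role group of the 8 above 1. The ubiquitin, ADP-ribose and nuclear body proteins (Herc6, Parp14, Trim30a, Sp100, Phf11d) had ratios from 0.849 to 0.95 and the remaining induced proteins from 0.691 (Rtp4) to 1.02 (Lgals3bp).

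**Figure D3:**
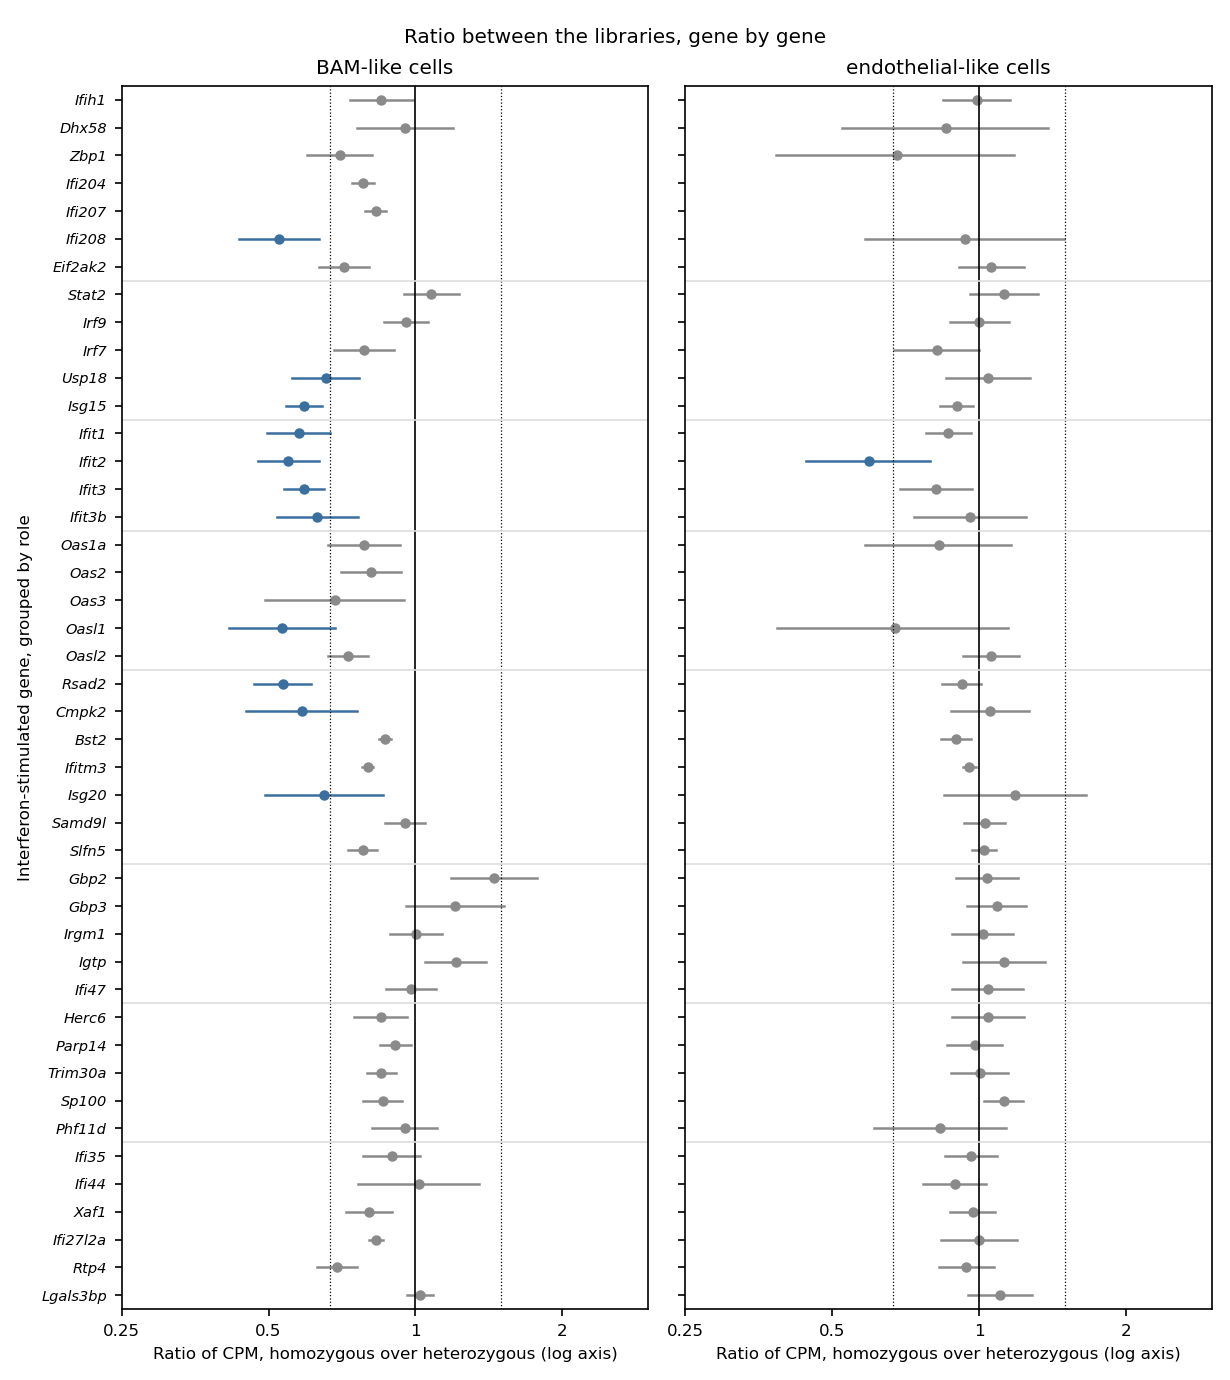
Ratio of CPM, homozygous over heterozygous (horizontal log axis), for each of the 44 genes (rows, grouped by role) in BAM-like and endothelial-like cells, with 95% counting intervals as bars, dotted lines at 1.5-fold, and called genes in blue. In BAM-like cells 37 points lie left of 1, and of the 5 GTPases 4 lie right of it; in endothelial-like cells most points lie close to 1.

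Other genes of the pathway were taken from lists fixed for this work, with earlier results of these data known. In BAM-like cells, of 21 interferon genes 19 had no UMI, and Ifnb1 and Ifnz had 1 UMI each. None of 5 measured receptor genes was called: Ifngr1 stood at 456 and 461 CPM and Ifnar2 at 236 and 261 CPM. None of 11 kinases, STATs and inhibitors was called. None of 6 measured IRF factors and none of 13 upstream receptors and adaptors was called; Unc93b1, which carries endosomal receptors to their place, stood at 649 and 688 CPM.

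Of the 5 measured interferon-induced chemokines 2 were called higher and 0 lower. Cxcl9, an interferon gamma target that attracts T cells, stood at 38.5 CPM in the heterozygous and 71.5 CPM in the homozygous library (1.86, 1.64 to 2.11), and Ccl5 at 24.9 and 68.2 CPM (2.74, 2.36 to 3.18). Both were higher in the homozygous library, while Ccl7 and Ccl12 had ratios of 1.11 and 0.816. Of 65 other measured interferon-induced genes 36 had a ratio below 1, and 5 were called lower and 5 higher, against the background of 1.30% and 2.73%; their sum had a ratio of 0.957 (0.946 to 0.968). Mx2, a dynamin-like antiviral GTPase, stood at 13 and 6.59 CPM (0.506, 0.374 to 0.681). Gbp4 stood at 3.99 and 10.1 CPM (2.53, 1.74 to 3.76). The other called genes were Ifi206, Ifi213, Oas1g and Oas1c, lower, and Gbp8, Nlrc5, Ciita and Ifitm1, higher. The called genes of these lists are named after their values were seen.

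The lower level was met in each of the 4 BAM-like clusters, to different degrees. The low-basal genes had ratios of 0.856 in the largest cluster (855 and 746 cells), 0.636 in the next (642 and 581), 0.723 in the cluster led by antigen-presentation genes (373 and 464) and 0.552 in a cluster that also carried microglia markers (201 and 287). That last cluster was deeper, with a median of 7369 UMIs, and its marker lead over microglia was only 0.835. Each alternative clustering held a cluster with BAM and microglia as its best types that stayed unnamed. The cells with at least 3 low-basal genes held 46.7% of the low-basal UMIs in the heterozygous and 37.0% in the homozygous library. BAM markers summed to a ratio of 1.05, with 6 of 14 higher in the homozygous library and 8 lower, and none at 0. Choroid plexus markers had a ratio of 0.514 (9 of 9 lower), monocyte markers, at 195 and 269.9 CPM, of 1.39 (8 of 10 higher), and erythroid markers of 1.69 (6 of 7 higher); the part of these in the result was not tested.

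**Figure D4:**
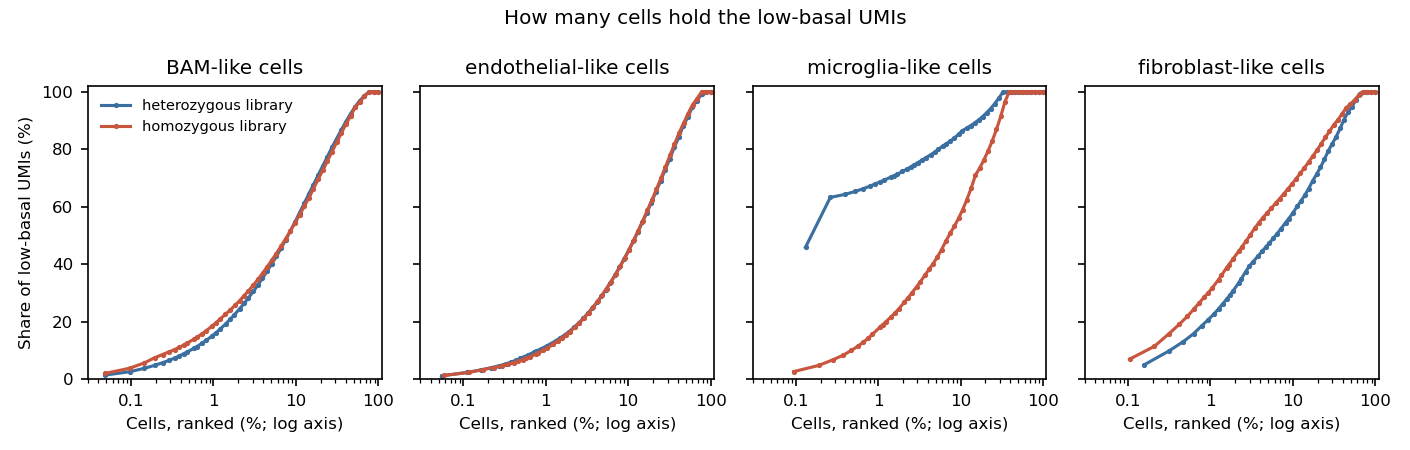
Share of the low-basal UMIs of a class (vertical axis, percent) held by its cells ranked from the most to the fewest such UMIs (horizontal log axis, percent of cells), for each library in BAM-like, endothelial-like, microglia-like and fibroblast-like cells. In microglia-like cells of the heterozygous library 1 cell holds 45.9% of the UMIs, against 1.38% in BAM-like cells.

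In endothelial-like cells the libraries lay close together. Of 40 measured genes 21 had a ratio below 1 and 19 above, with a median of 0.985 beside 1.02 over all genes. By the 1.5-fold rule 1 gene was lower and 0 higher, against a background of 1.30% and 2.56%. The sum had a ratio of 0.971 (95% interval 0.954 to 0.987) and the low-basal genes, at 1540 and 1418 CPM, a ratio of 0.921 (95% interval 0.891 to 0.952).

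The called gene was Ifit2, at 27.8 CPM in the heterozygous and 16.5 CPM in the homozygous library (0.594, 0.443 to 0.792). Its neighbours Ifit1, Ifit3 and Ifit3b were also below 1 but within 1.5-fold, with ratios of 0.866, 0.816 and 0.959. The 5 most abundant genes differed little: Ifitm3 had a ratio of 0.954, Slfn5 of 1.02, Bst2, at 332 and 298 CPM, of 0.897, Isg15, at 298 and 268 CPM, of 0.899 and Rsad2 of 0.922. All 5 GTPases were between 1.02 (Irgm1) and 1.12 (Igtp), each with an interval that holds 1. Over the 5 endothelial-like clusters with over 50 cells in each library the low-basal ratio ran from 0.819 to 1.08.

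Rsad2, Isg15 and Cmpk2 can be set beside their values in BAM-like cells. For Rsad2 the interval was 0.840 to 1.01 in endothelial-like and 0.467 to 0.612 in BAM-like cells. For Isg15 it was 0.833 to 0.971 and 0.542 to 0.643, and for Cmpk2 0.878 to 1.27 and 0.449 to 0.759. Of the 11 genes called lower in BAM-like cells, Rsad2, Isg15, Cmpk2, Ifit1, Ifit3 and Usp18 had intervals apart between the classes. Those of Ifit2, Ifi208, Oasl1, Ifit3b and Isg20 overlapped. The 11 were selected by their BAM-like ratios, which favours such gaps, so this split is description only. The 3 genes with values were chosen after seeing them. A test of this difference between classes over animals could not be made with 1 library per genotype.

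Of the other pathway lists in endothelial-like cells, none of 5 measured receptor genes was called, with Ifnar1 at 261 and 287 CPM, and none of the 21 interferon genes had a UMI. The kinase gene Tyk2 stood at 14.3 and 21.8 CPM (1.52, 1.11 to 2.09) and the chemokine gene Cxcl10 at 4.71 and 15.2 CPM (3.23, 1.99 to 5.43), both called higher. A single homozygous cell of 1487 UMIs held 36 of the Cxcl10 UMIs, and its part in the ratio was not tested. Of 52 other measured interferon-induced genes Ifitm1 was called lower (38.5 and 23.9 CPM) and Tgtp1 higher (7.58 and 13.3 CPM). Endothelial markers summed to a ratio of 0.991, while erythroid markers had a ratio of 3.02, whose part was not tested.

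Microglia-like cells held little of the set at rest, and their lower values in the homozygous library rested on 2 cells. With all cells counted, the 5 most abundant genes were close between libraries: Bst2 stood at 203 CPM in the heterozygous and 209.8 CPM in the homozygous library, Trim30a at 119.8 and 113 CPM, Ifitm3 at 104 and 112 CPM, Lgals3bp at 101.9 and 120.4 CPM and Parp14 at 74.9 and 63.9 CPM. Of 31 measured genes 12 were called lower and 0 higher, against a background of 1.70% and 2.57%. The lowest ratios were those of Cmpk2, at 28.7 and 2.93 CPM (0.102, 0.0487 to 0.194), and Rsad2, at 61.1 and 6.39 CPM (0.105, 0.0649 to 0.162).

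The other 10 called genes were Ifit2 (0.157), Ifit1 (0.177), Ifit3 (0.209), Usp18 (0.234), Isg15 (0.259), Gbp2 (0.358), Oasl2 (0.525), Gbp3 (0.585), Igtp (0.662) and Irgm1 (0.665). The low-basal genes summed to 525 and 214 CPM (0.407 (95% interval 0.372 to 0.445)). Of these UMIs in the heterozygous library 2 of 761 cells held 798 (63.2%), one with 579 and one with 219. They carried 10 and 7 of 11 microglia markers at depths of 14812 and 10585 UMIs. Both were rich in Cxcl10 (200 and 323 UMIs), and the first also in Ccl5 (196 UMIs) and Cxcl9 (52 UMIs). The first held 88 UMIs of microglia markers, 30 of BAM markers (1 gene) and 20 of endothelial markers (4 genes). With interferon genes used for clustering both were named BAM-like. The first was also named fibroblast-like with at most 5% mitochondrial UMIs and BAM-like with doublets kept. The second was also named BAM-like with at least 500 UMIs per cell and with Leiden resolution 2.

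Without these 2 cells the low-basal genes stood at 195 and 214 CPM, a ratio of 1.09 (95% interval 0.975 to 1.23), and 0 of 23 measured genes were called lower. Rsad2 then had 10 and 24 UMIs and Isg15 a ratio of 1.01 (0.672 to 1.54). Stat2 and Slfn5 were called higher, with ratios of 1.53 and 1.62. In all microglia-like cells 4 chemokines were called lower, Cxcl10 (235 and 11.7 CPM), Ccl5 (81.9 and 4.26 CPM), Cxcl9 and Ccl7, the first 3 being the genes those 2 cells carried. None of the 5 measured receptor, 10 kinase and STAT, 5 IRF and 12 upstream genes was called; Ifngr1 stood at 762 and 781 CPM.

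Fibroblast-like cells went in the direction opposite to BAM-like cells. Of 33 measured genes 30 had a ratio above 1, with a median of 1.16 beside 1.01 over all genes, and 4 were called higher and 0 lower, against a background of 2.12% and 1.46%. The sum had a ratio of 1.21 (95% interval 1.18 to 1.24), and the low-basal genes, at 452 and 649 CPM, a ratio of 1.44 (95% interval 1.36 to 1.52). The most abundant genes were Ifitm3 at 763 CPM in the heterozygous and 943 CPM in the homozygous library, Samd9l at 128 and 138 CPM, Bst2 at 116 and 144 CPM, Isg15 at 103 and 152 CPM and Lgals3bp at 93.9 and 99.5 CPM.

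Ifit1 stood at 51.1 CPM in the heterozygous and 99.5 CPM in the homozygous library (1.95, 1.66 to 2.30), found in 10.0% and 15.3% of cells. Usp18 stood at 8.72 and 15.3 CPM (1.75, 1.17 to 2.67) and Trim30a, an E3 ligase of the tripartite motif family, at 2.31 and 9.22 CPM (3.99, 1.97 to 9.17). Rsad2 stood at 1.54 and 19.7 CPM, from 6 and 124 UMIs (12.8, 5.72 to 35.6), with 37.1% of the homozygous UMIs in 1 cell. All 4 were higher in the homozygous library, Trim30a and Rsad2 from few UMIs in the heterozygous one. Isg15, Ifit2, Ifit3 and Irgm1 lay just inside 1.5-fold, with ratios from 1.46 to 1.48.

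The 3 fibroblast-like clusters differed: the low-basal genes had ratios of 2.0 in the largest (276 and 345 cells), 1.23 in the next (199 and 353) and 0.780 in the smallest (164 and 259). In the largest 11 of 30 measured genes were called higher and 0 lower, beside 230 and 182 of all 8937. In the next 0 of 9 were higher and 2 lower, Sp100 and Bst2, beside 196 and 113 of 5332. In the smallest 0 of 25 were higher and 3 lower, Ifit1, Ifit3 and Isg15, beside 189 and 160 of 7726. The number of genes called was 1 with a minimum of 200 UMIs per gene and 15 with interferon genes used for clustering. Fibroblast markers summed to a ratio of 1.18 (11 of 11 higher), choroid plexus markers to 0.333, monocyte markers to 0.525 and erythroid markers to 1.76; their part was not tested. Of the pathway lists, the chemokine gene Ccl7 (8.47 and 21.9 CPM) was called higher and Ccl12 (11.8 and 4.93 CPM) lower, and 8 of 52 other interferon-induced genes were called higher and 0 lower, among them Ly6a (69.5 and 127 CPM). No receptor, kinase, IRF or upstream gene was called. Ifnb1, the interferon-beta gene, had 0 and 4 UMIs.

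**Figure D5:**
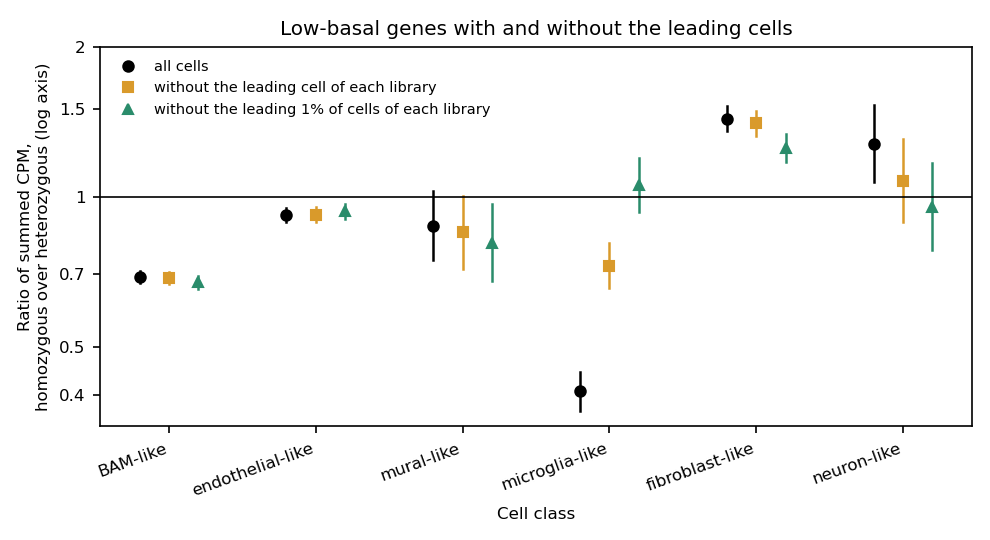
Ratio of the summed low-basal genes, homozygous over heterozygous (vertical log axis), in 6 cell classes over all cells, without the leading cell of each library and without the 1% of cells with the most UMIs of the set, with 95% counting intervals. BAM-like and endothelial-like values stay below 1 in all 3 settings, and the microglia-like value reaches 1 or more without the 1% of cells.

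In mural-like cells (192 and 358) 14 genes were measured and 2 were called lower and 0 higher, against a background of 4.38% and 7.05%. Isg15 stood at 99.2 CPM in the heterozygous and 52.0 CPM in the homozygous library (0.524, 0.345 to 0.793) and Samd9l at 67.4 and 40.7 CPM (0.604, 0.370 to 0.986). The most abundant gene, Ifitm3, stood at 962 and 971 CPM, followed by Slfn5 (176 and 132 CPM) and Bst2 (146 and 112 CPM). Isg15 and Samd9l were the next in the heterozygous library. The low-basal genes had a ratio of 0.876 (95% interval 0.746 to 1.03), which holds 1. Choroid plexus markers, at 41349.8 and 7505 CPM, had a ratio of 0.181, and endothelial markers, at 4857 and 3588 CPM, of 0.739 (9 of 12 lower); endothelial-like cells were the highest class for both called genes, and the part of these markers was not tested.

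Neuron-like cells (399 and 806) had Stat2 and Irf9, subunits of the signalling complex, among their most abundant genes of the set, and low levels of most effectors. Their most abundant genes were Stat2 (115 and 94.4 CPM), Ifitm3 (65.2 and 94.0 CPM), Irf9 (57.3 and 47.8 CPM), Herc6, the mouse Isg15 ligase (35.0 CPM in both), and Slfn5 (26.2 and 27.7 CPM). Stat2 was found in 26.8% and 25.1% of neuron-like cells, with a ratio of 0.819 (95% interval 0.663 to 1.01). The 4 IFIT genes together summed to 18.3 and 25.3 CPM, none with 50 UMIs.

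Of 12 measured genes 3 were called higher and 0 lower, against a background of 3.38% and 3.45%. Isg15 stood at 7.16 CPM in the heterozygous and 27.3 CPM in the homozygous library (3.82, 1.90 to 8.70), with 61.8% of the homozygous UMIs in 1 cell. Ifi27l2a stood at 14.3 and 38.2 CPM (2.67, 1.60 to 4.69), with 44.2% in 1 cell, and Bst2 stood at 20.7 and 35.4 CPM (1.71, 1.09 to 2.76). One homozygous cell held 21.3% of the low-basal UMIs of the class and also 43 UMIs of Ccl5, a T-cell and NK-cell gene, and 51 UMIs of monocyte markers. T and NK markers summed to 8.75 and 40.6 CPM in this class and erythroid markers had a ratio of 2.44; their part was not tested. Without the leading cell of each library none of the 3 called genes passed the rule, and 1 other gene did. Isg15 then had a ratio of 1.46 (0.662 to 3.54), Ifi27l2a of 1.67 (0.941 to 3.13) and Bst2 of 1.42 (0.894 to 2.31). Without the top 1% of cells 0 genes were called, and with doublets kept the summed ratio was below 1. Of the pathway lists Ccl5 was called higher (2.39 and 20.5 CPM). None of 5 receptor, 8 kinase and STAT, 3 IRF and 3 upstream genes measured was called, with Ifnar1 at 71.6 and 79.2 CPM.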

How the data were processed

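Per the file headers, the authors deposited raw UMI counts per gene and cell barcode from Cell Ranger 5.0.0, on GRCm38.p6 (mm10) per the submitters' processing notes; the lowest barcode held 500 UMIs. Barcodes with at least 1000 UMIs, 500 genes and at most 10% mitochondrial UMIs were kept. Doublets called by Scrublet (expected 10%; 1073 and 1193 barcodes) were removed. Clusters came from 2000 variable genes without the interferon genes, 30 principal components, 20 neighbours and Leiden resolution 1 (scanpy 1.11.5, leidenalg 0.10.2), and were named from marker lists; 3 of 31 stayed unnamed, and names may differ from the study's. Counts were summed per class and library. Intervals came from scipy 1.17.1. The ratio and call code was tested on simulated data. The members and lists were chosen with earlier results of these data known. Genes named are the 5 of highest level and every called gene in the 7 classes whose calls are counted, up to 4 genes of most UMIs per pathway list, and others said to be named after their values were seen. Alternatives covered cell filters, doublets, clustering, weighting, thinning, scaling and minimum counts.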

Additional observations from a re-analysis of the deposited data

Results flagged for a closer look

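Some genes of the set differed in direction or size between cell classes of the same 2 libraries, all as ratios homozygous over heterozygous. Rsad2 had a ratio of 0.535 in BAM-like and 0.105 in microglia-like cells but 12.8 in fibroblast-like cells. Ifit1 had ratios of 0.577, 0.177 and 1.95 in the same 3 classes, and Usp18 of 0.655, 0.234 and 1.75. Isg15 had a ratio of 0.590 in BAM-like, 0.259 among microglia-like and 0.524 among mural-like cells, against 3.82 among neuron-like cells. The differences between classes were not tested, since each genotype has 1 library. The microglia-like values rest on 2 cells, and in neuron-like cells 61.8% of the homozygous Isg15 UMIs lay in 1 cell. In fibroblast-like cells without the top 1% of cells, Rsad2 had a ratio of 2.68 (1.08 to 7.96) and Usp18 of 1.40 (0.871 to 2.32). Neither was then called, while Ifit1, at 1.54 (1.28 to 1.85), still was.

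Outside the named classes, a cluster that stayed unnamed (807 and 961 cells, led by Rspo3, Ccn3 and F3) held the low-basal genes at 681 CPM in the heterozygous and 1313 CPM in the homozygous library, a ratio of 1.93 (95% interval 1.85 to 2.01). All 36 genes measured there had a ratio above 1, beside 46.7% of all genes below 1. The 44 genes summed to 2526 and 3630 CPM. Fibroblast was the best marker type of this cluster, with a mean log2 enrichment of 1.63, but the naming rule was not passed. With Leiden resolution 0.5 a cluster with Rspo3, Ccn3 and F3 among its leading genes (1084 and 1307 cells) was named fibroblast-like. The 1% of homozygous cells with the most such UMIs held 39.1% of them.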

How the results depend on the processing

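Recomputed values are homozygous over heterozygous. For the sums, counts and shares 157 of 231 alternative values stayed within the interval of the main value, 69 moved and 5 reversed. For single genes and low-basal sums these were 395, 111 and 40 of 546. Counts of called genes carry no direction and stayed when within 1.5-fold of the main count. A value was counted as reversed only where the main interval left out 1. A change of sign inside an interval that holds 1 thus counted as staying. The log2 ratio of the share of cells reached -0.20 in fibroblast-like, 0.19 in microglia-like and 0.047 in endothelial-like cells in this way. The low-basal ratio in BAM-like cells lay between 0.666 and 0.759 under every alternative run, and in endothelial-like cells no summed value changed sign. In BAM-like cells the log2 ratio of the summed set was -0.29, and -0.23 with at least 2000 UMIs per cell, -0.31 with doublets kept and median-of-ratios scaling, -0.19 with Leiden resolution 0.5, -0.35 with equal weight per cell, -0.37 with cells thinned, -0.30 with the top 1% of cells left out and -0.24 with clusters of a marker lead under 1.5 left out. In BAM-like cells the number of genes called was 11, and 5 with Leiden resolution 0.5. In BAM-like cells the log2 ratio of the share of cells with at least 3 low-basal genes was -0.66, and -1.06 with at least 5 genes and -0.20 with cells not thinned. In microglia-like cells the log2 ratio of the summed set was -0.34, and 0.29 with at most 5% mitochondrial UMIs, -0.19 with at least 500 UMIs per cell, -0.44 with at least 2000 UMIs per cell, -0.0029 with doublets kept, -0.22 with Leiden resolution 2, 0.16 with interferon genes in the clustering, -0.027 with equal weight per cell, -0.055 with cells thinned, 0.14 with the top 1% of cells left out and -0.0016 with the leading cell left out. In microglia-like cells the number of genes called was 12, and 3 with doublets kept, 2 with interferon genes in the clustering, the top 1% of cells left out and a minimum of 200 UMIs, 7 with equal weight per cell, 0 with cells thinned and 4 with the leading cell left out. In endothelial-like cells the log2 ratio of the summed set was -0.043, and -0.076 with cells thinned. In endothelial-like cells the number of genes called was 1, and 2 with equal weight per cell. In endothelial-like cells the log2 ratio of the share of cells with at least 3 low-basal genes was -0.048, and -0.51 with at least 5 genes. In fibroblast-like cells the log2 ratio of the summed set was 0.27, and 0.34 with at most 5% mitochondrial UMIs and at least 500 UMIs per cell, 0.10 with at most 20% mitochondrial UMIs, 0.31 with at least 2000 UMIs per cell, 0.41 with Leiden resolution 0.5, 0.54 with interferon genes in the clustering and 0.23 with the top 1% of cells left out. In fibroblast-like cells the number of genes called was 4, and 10 with at most 5% mitochondrial UMIs, 12 with at least 500 UMIs per cell, 7 with at least 2000 UMIs per cell and cells thinned, 14 with Leiden resolution 0.5, 9 with Leiden resolution 2, 15 with interferon genes in the clustering, 8 with equal weight per cell, 2 with the top 1% of cells left out and 1 with a minimum of 200 UMIs. In mural-like cells the log2 ratio of the summed set was -0.057, and -0.45 with at most 5% mitochondrial UMIs, -0.17 with at least 500 UMIs per cell, -0.34 with at least 2000 UMIs per cell and -0.22 with interferon genes in the clustering. In mural-like cells the number of genes called was 2, and 0 with at most 5% mitochondrial UMIs, cells thinned and a minimum of 200 UMIs, 1 with the top 1% of cells left out and 4 with a minimum of 20 UMIs. In neuron-like cells the log2 ratio of the summed set was 0.25, and -0.062 with at most 5% mitochondrial UMIs, 0.029 with at least 2000 UMIs per cell, -0.26 with doublets kept, 0.057 with interferon genes in the clustering, 0.054 with equal weight per cell, 0.073 with cells thinned, 0.021 with the top 1% of cells left out and 0.094 with the leading cell left out. In neuron-like cells the number of genes called was 3, and 0 with at most 5% mitochondrial UMIs, at least 2000 UMIs per cell, interferon genes in the clustering, cells thinned, the top 1% of cells left out and a minimum of 200 UMIs, 1 with equal weight per cell and the leading cell left out and 5 with a minimum of 20 UMIs. With at most 5% mitochondrial UMIs, in microglia-like cells, the sign of the log2 ratio changed, to 0.64 for the low-basal sum, 1.15 for Isg15, 0.55 for Ifit1, 0.97 for Ifit2, 0.91 for Ifit3, 0.91 for Oasl2, 1.39 for Rsad2, 1.19 for Cmpk2, 0.63 for Gbp2, 0.38 for Gbp3 and 0.039 for Igtp. With interferon genes in the clustering, in microglia-like cells, the sign of the log2 ratio changed, to 0.13 for the low-basal sum, 0.11 for Isg15, 1.40 for Ifit1, 0.18 for Ifit2, 0.72 for Ifit3, 0.41 for Oasl2, 0.56 for Rsad2 and 0.35 for Cmpk2. With cells thinned, in microglia-like cells, the sign of the log2 ratio changed, to 0.66 for Oasl2, 1.70 for Gbp3 and 0.26 for Igtp. With the top 1% of cells left out, in microglia-like cells, the sign of the log2 ratio changed, to 0.077 for the low-basal sum, 0.19 for Isg15, 0.83 for Ifit1, 0.022 for Ifit2, 0.40 for Ifit3, 0.23 for Oasl2, 0.63 for Rsad2, 0.19 for Cmpk2 and 0.10 for Irgm1. With cells thinned, in fibroblast-like cells, the sign of the log2 ratio changed, to -0.26 for Usp18. With at most 5% mitochondrial UMIs, in mural-like cells, the sign of the log2 ratio changed, to 0.34 for Isg15. With at most 5% mitochondrial UMIs, in neuron-like cells, the sign of the log2 ratio changed, to -0.15 for the low-basal sum. With at least 2000 UMIs per cell, in neuron-like cells, the sign of the log2 ratio changed, to -0.071 for the low-basal sum. With doublets kept, in neuron-like cells, the sign of the log2 ratio changed, to -0.45 for the low-basal sum, -0.24 for Isg15 and -0.51 for Ifi27l2a. With the top 1% of cells left out, in neuron-like cells, the sign of the log2 ratio changed, to -0.066 for the low-basal sum and -0.23 for Isg15. In microglia-like cells 2 heterozygous cells hold most of the low-basal UMIs, and settings that leave out or rename them change the values; for the other changes the cause was not tested. Leaving out clusters of a small marker lead, leaving out the leading cell and recomputing the low-basal ratio were chosen after seeing the data. With 1 library per genotype no replicate could be left out. No paired analysis was possible because each genotype has 1 library and the labels give no replicate numbers. At the depth of these libraries 14 genes in mural-like and 12 in neuron-like cells reached 50 UMIs.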

Other observations

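Smaller classes held the set at levels of their own, given here as values. In neutrophil-like cells (78 and 139) Ifitm3 stood at 1249.8 CPM in the heterozygous and 1011 CPM in the homozygous library, Bst2 at 508 and 301 CPM and Oas3 at 38.1 and 24.5 CPM. Of 30 genes measured there 11 were called lower in the homozygous library, against a background of 3.82% of all genes, and Cmpk2, at 20.6 and 38.9 CPM, was called higher, against 3.32%. The lower genes were Ifi47, Ifit1, Ifit3, Irf7, Parp14, Ifi207, Slfn5, Isg15, Ifi204, Bst2 and Eif2ak2. Erythroid markers stood at 93.7 and 6447 CPM there, mural and oligodendrocyte markers had ratios of 3.37 and 2.31, and endothelial markers of 0.576; their part was not tested. In monocyte-like cells (46 and 94) the 44 genes summed to 10419.9 and 11292 CPM, above BAM-like cells, with Ifitm3 at 5494 and 5229 CPM and Ifi27l2a at 2119 and 2107 CPM. Ifit1 stood at 12.3 and 139 CPM there, with 77.9% of the homozygous UMIs in 1 cell. Ependymal-like cells (131 and 268) held Ifitm3 at 757 and 771 CPM and Cmpk2 at 36.5 and 37.3 CPM, and oligodendrocyte-like cells (97 and 174) held Xaf1 at 73.5 and 68.5 CPM.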
